A study of Mus musculus with 12 samples.

Results

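The comparison described here is the response of N9 cells to lipopolysaccharide (LPS) in control medium. N9 is 1 immortalised line of mouse microglia, the macrophages that live in the brain, and RNA sequencing was used to count reads per gene. The members were chosen from the labels: 3 libraries of cells in control medium with LPS and 3 of cells in control medium without it, 6 of the 12 libraries in the series. Both groups were kept for 18 h in glucose-free medium with dialysed serum to which 3 mM glucose and 5 mM fructose had been added. The LPS group was then given LPS at 1 µg/ml for a further 6 h. The other 6 libraries, from cells given LPS in medium with raised glucose or fructose, entered the fit only to help estimate the spread between libraries. Whether each library came from its own culture is not stated in the labels, so p-values measure only the spread from library to library, which may be technical. The count table listed 54532 genes, of which 12766 had enough reads to be tested.

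LPS coats the surface of Gram-negative bacteria. It is sensed by Toll-like receptor 4, whose adaptors switch on transcription factors of the NF-kB, AP-1 and interferon regulatory factor families. The cytokine, chemokine and interferon-response genes that follow are the best known part of this response. A macrophage that receives LPS also changes its shape, its movement, its receptors, its handling of metals and lipids, and its progress through the cell cycle. The results below concern those other programmes.

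Total counts ran from 16363767 to 17956772 over the 6 libraries. Values are CPM, the counts of a gene relative to the summed counts of its library, with library sizes adjusted by edgeR's TMM factors. Fold changes are on the log2 scale, LPS against control, with 3 libraries a group. The p-values come from edgeR's quasi-likelihood test with Benjamini-Hochberg adjustment over all tested genes. The ± value is 1 standard error (SE) worked back from that test's statistic. Its spread was estimated over all 12 libraries of the fit and drawn toward that of other genes. Genes below an adjusted p of 0.05 are called, and only those are said to have risen or fallen. Most genes named below were chosen because they were called, which favours groups without overlap. A lack of overlap is therefore a description and no added support. The 15 microglia markers summed to 2310 to 2380 CPM without LPS and 2330 to 2380 with it (marker sums on library totals), and none was at 0 in all 6 libraries. The macrophage genes Csf1r, Cd68, Ptprc and Spi1 were abundant in both groups, with Csf1r at 425 and 472 CPM, whereas the microglial genes P2ry12, Sall1 and Aif1 were below 1 CPM in all 6 libraries and Tmem119 lay between 8.81 and 10.2 CPM. None of the 10 lymphocyte markers was tested, and 6 of them had no read. Summed CPM of the 12 neuron markers was 25.2 to 26.9 without LPS and 18.1 to 18.9 with it, most of it from Map2, and Gad2 was at 0. Over the 10 oligodendrocyte markers the sum was 47.5 to 56.2 and 41.8 to 42.2, most of it from Mbp and Cnp, and Olig2 and Sox10 were at 0. The sums were 99.3 to 102 and 93.0 to 101 for 8 astrocyte markers, and 110 to 121 and 94.9 to 107 for 8 endothelial markers, of which Cldn5 was at 0. Gja1 and Aldh1l1 gave most of the astrocyte sum, while Gfap was below 1 CPM in all 6 libraries. Most of the endothelial sum came from Flt1, which fell, and Vwf, which was not called. Kdr, at 0.112 to 0.425 CPM without LPS and 0.807 to 1.25 with it, and Cdh5, at 0.112 to 0.287 and 0.537 to 0.776, were called higher (edgeR adjusted p = 0.0073 and 0.0397), and over the alternatives 0 to 2 of the tested endothelial markers were. Traces of other tissues differed between libraries: the hepatocyte gene Alb had 2, 155 and 292 counts in control libraries 1, 2 and 3 and 2, 0 and 0 with LPS. The fibroblast gene Col1a1 had 70, 3 and 49 counts without LPS and 40, 3 and 1 with it, and 8 fibroblast and mural markers summed to 5.33 to 18.1 and 3.89 to 15.2 CPM. The part of these traces in the results was not tested. In RNA from a whole culture, fewer cells in a state and less RNA per cell cannot be told apart.

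LPS raised 1941 genes (15.2% of those tested) and lowered 1736 (13.6%). Among these, 503 were at least 2-fold higher (3.94%) and 109 at least 2-fold lower (0.854%). The split of calls moved with the scaling of the libraries: upper-quartile factors gave 1622 higher and 2292 lower, and library totals alone gave 1412 and 2951. Upper-quartile factors moved the median of all genes by -0.05 on the log2 scale and library totals by -0.09, so changes of that size depend on the scaling. Gene lists are described by how many members were called and by their median log2 fold change, which was -0.004 over all tested genes. The counts of called members stand beside 15.2% higher and 13.6% lower among all tested genes. The lists differed in direction, from immunoproteasome subunits, of which 83.3% rose, to DNA repair genes, of which 73.4% fell.

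**Figure D1:**
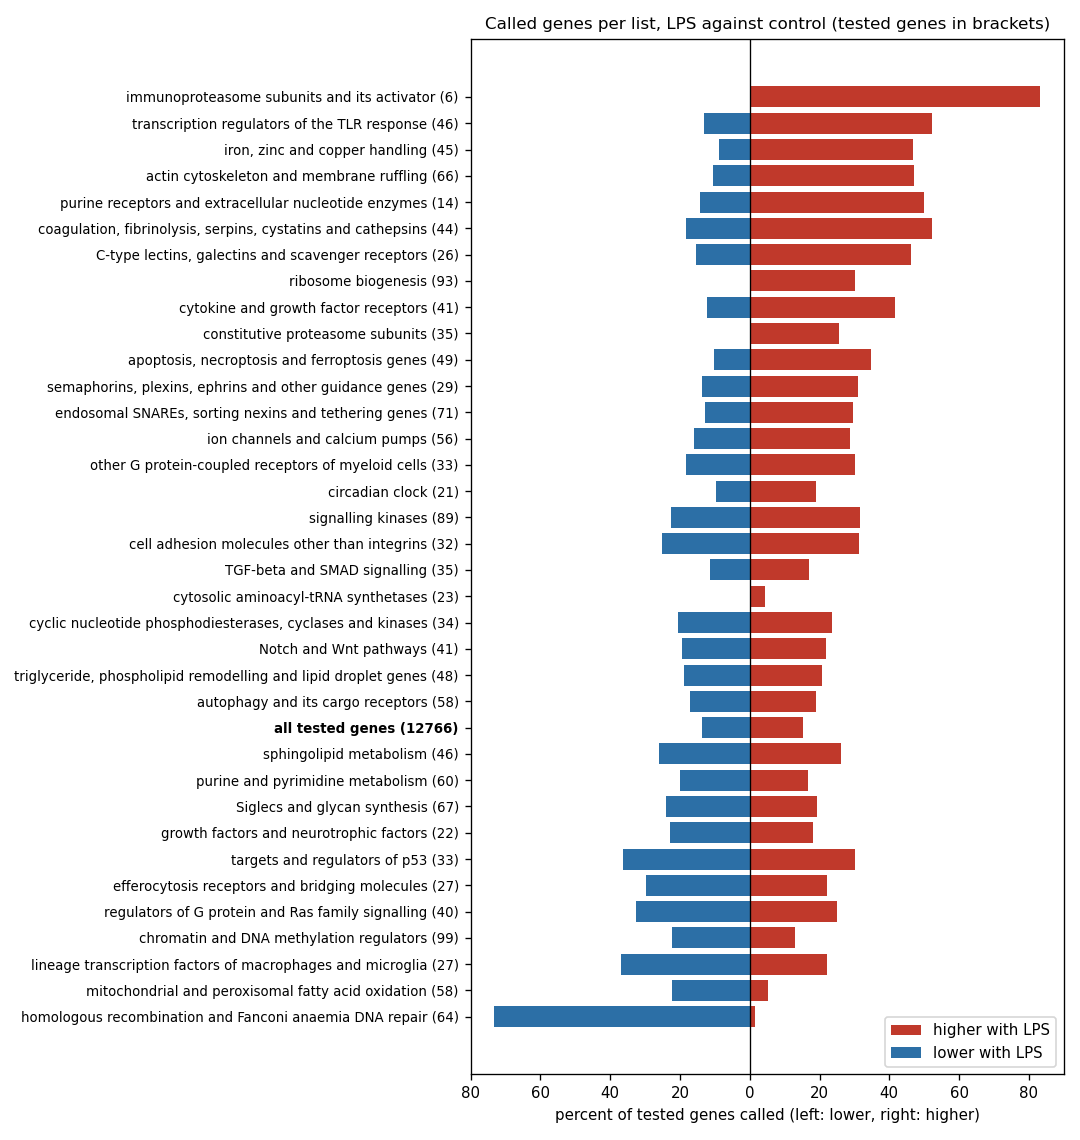
Percent of the tested genes of each list called higher (red, to the right) or lower (blue, to the left) with LPS, with the number of tested genes in brackets and all 12766 tested genes in bold. DNA repair genes lay at the bottom with 73.4% lower and 1.56% higher, and the lists on immunoproteasome, metals and actin lay near the top.

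The 15 largest rises were taken among protein-coding genes that averaged 50 or more counts in one group, with no overlap between groups, leaving out a list of the best known cytokine, chemokine and interferon genes and their relatives, such as Ccrl2 and Tnfrsf1b, which are described with the receptors. They included genes of the matrix, of signalling and of the cytoskeleton. Tnn, which encodes tenascin N, an extracellular matrix glycoprotein, had 0.0573, 0.112 and 0.213 CPM in the control libraries and 6.83, 7.1 and 7.41 CPM with LPS (log2 fold change 5.70 ± 0.32, adjusted p = 1.21e-10). Col5a3, a fibrillar collagen chain, had 1 count over the 3 control libraries and 171 over the 3 LPS libraries, a ratio of 175 with a 95% counting interval of 31.1 to 6970. In both genes the LPS libraries lay close together. Hdc, histidine decarboxylase, the enzyme that makes histamine, had 0.172, 0.559 and 0.213 CPM in the control libraries and 4.9, 4.54 and 5.25 CPM with LPS (log2 fold change 3.93 ± 0.37, adjusted p = 1.62e-07). Edn1, the vasoconstrictor peptide endothelin, had 0.344, 0.279 and 0.319 CPM in the control libraries and 4.66, 4.36 and 5.38 CPM with LPS (log2 fold change 3.90 ± 0.27, adjusted p = 3.33e-09). The endothelial markers Kdr and Cdh5 were also higher with LPS, and their part in the level of Edn1, a gene of endothelial cells, was not tested. Mmp13, a collagenase of the matrix metalloproteinase family, had 0.688, 0.559 and 0.16 CPM in the control libraries and 7.39, 6.56 and 6.15 CPM with LPS (log2 fold change 3.83 ± 0.29, adjusted p = 1.20e-08). None of these 5 genes was above 1 CPM in any control library, and each was above 3 CPM in every LPS library.

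Other large rises started from a measurable level. Lrrc25, a leucine-rich repeat membrane protein of myeloid cells, had 11.3, 14.1 and 15.1 CPM in the control libraries and 93.1, 85.9 and 88.9 CPM with LPS (log2 fold change 2.72 ± 0.09, adjusted p = 3.49e-14). Myc, the growth-promoting transcription factor, had 2.92, 4.25 and 2.92 CPM in the control libraries and 27.3, 26.6 and 23.8 CPM with LPS (log2 fold change 2.94 ± 0.13, adjusted p = 4.14e-12). Fas, the death receptor, had 7.34, 8.72 and 8.93 CPM in the control libraries and 60.8, 56.6 and 53.8 CPM with LPS (log2 fold change 2.77 ± 0.11, adjusted p = 7.38e-13). In all 3 genes the lowest LPS library was more than 5 times the highest control library. Acp5, the tartrate-resistant acid phosphatase known from osteoclasts, rose 9.4-fold, and Spata13, an exchange factor for Rac and Cdc42, rose 8.65-fold. The membrane protein gene Tmem171 rose 6.84-fold. Phlda1 rose 6.67-fold. Exons of an opposite-strand gene cover 33.0% of its exonic bases, and no source used here gives the strand setting of the counting.

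The largest falls were smaller in size than the largest rises. Abcd2, a peroxisomal transporter of very long chain fatty acyl-CoA, had 3.33, 3.69 and 3.62 CPM in the control libraries and 0.807, 0.836 and 0.418 CPM with LPS (log2 fold change -2.36 ± 0.34, adjusted p = 3.31e-05). Lbh, a transcription cofactor, had 45.5, 37.9 and 46.1 CPM in the control libraries and 7.88, 9.49 and 10.2 CPM with LPS (log2 fold change -2.23 ± 0.12, adjusted p = 6.11e-11). Ipcef1, a partner of the cytohesin family, had 9.06, 11.5 and 12.2 CPM in the control libraries and 2.17, 2.92 and 1.85 CPM with LPS (log2 fold change -2.23 ± 0.23, adjusted p = 5.06e-07). Each of these was more than 4-fold lower with LPS, and no overlap between groups was a condition of the choice. Zfp395 was 4.49-fold lower and Ppp1r3c, a subunit that directs protein phosphatase to glycogen, was 3.27-fold lower. Genes of signalling and adhesion followed: Rgs18, a brake on G protein signalling, at 2.99-fold lower, Nectin3, an adhesion molecule, at 2.86-fold, Dgkg, a diacylglycerol kinase, at 2.7-fold, and Cytip, which binds cytohesin, at 2.59-fold. Lpin1, a phosphatidate phosphatase of triglyceride synthesis, had 9.29, 10.6 and 9.99 CPM in the control libraries and 4.28, 4.12 and 3.17 CPM with LPS (log2 fold change -1.37 ± 0.19, adjusted p = 2.07e-05). Cmah, the enzyme that turns one sialic acid, Neu5Ac, into another, Neu5Gc, had 5.33, 7.93 and 5.48 CPM in the control libraries and 2.23, 2.45 and 2.27 CPM with LPS (log2 fold change -1.43 ± 0.22, adjusted p = 7.40e-05). The remaining genes of the 15 largest falls were Susd3, Pde1c, Dclk3 and Tspan32, with log2 fold changes of -1.61, -1.57, -1.44 and -1.36.

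**Figure D2:**
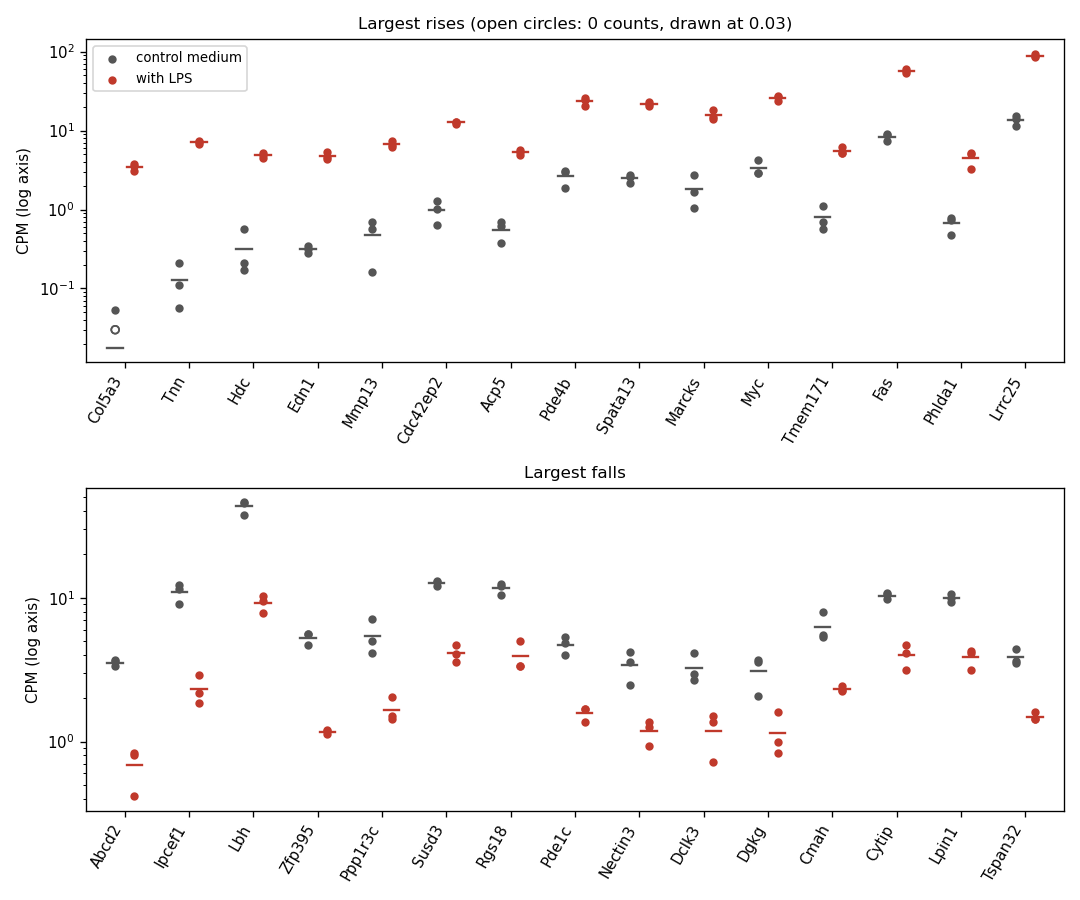
CPM per library on a log axis for the 15 largest rises (top) and the 15 largest falls (bottom) among protein-coding genes that averaged 50 or more counts in one group, outside the best known cytokine, chemokine and interferon genes, with control libraries in grey, LPS libraries in red and lines at the group means. Open circles mark 0 counts. Only genes in which the 3 libraries of a group lay apart from the 3 of the other were taken, so that separation is part of the choice.

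Of 814 transcription factors 123 rose (15.1%) and 105 fell (12.9%), shares near those of all tested genes, and library totals alone gave 180 lower. Families within them differed. Of 10 genes of the Rel homology family, which holds the NF-kB subunits and NFAT, 7 rose and 1 fell. The basic leucine zipper family, to which AP-1 belongs, had 19 of 40 higher and 5 lower, with a median of 0.20, although library totals alone or upper-quartile factors gave 10 or 9 lower and leaving out LPS library 2 gave 3. Of 388 C2H2 zinc finger genes, the largest family, 29 rose and 27 fell, although library totals alone gave 18 and 54 and leaving out control library 2 gave 17 lower. In the list of 46 tested regulators of the Toll-like receptor response, 24 rose and 6 fell, with a median of 0.24. Prdm1, the repressor Blimp-1, had 0.172, 0.224 and 0.106 CPM in the control libraries and 1.37, 1.73 and 1.79 CPM with LPS (log2 fold change 3.23 ± 0.50, adjusted p = 6.17e-05). Mxd1, a partner of Max that opposes Myc at the same sites, had 7.91, 7.99 and 7.97 CPM in the control libraries and 24.6, 28.2 and 21.4 CPM with LPS (log2 fold change 1.64 ± 0.13, adjusted p = 1.74e-08). Prdm1 was close to 0 without LPS, while Mxd1 was near 8 CPM in each control library, and it rose where Myc rose as well. Batf2 and Zeb1 rose 6.04-fold and 3.77-fold, from below 1.1 CPM in each control library. Epas1, the hypoxia-inducible factor 2-alpha, had 38, 44.5 and 48.1 CPM in the control libraries and 20.6, 19.9 and 20.5 CPM with LPS (log2 fold change -1.10 ± 0.10, adjusted p = 6.10e-08). Nfil3, a clock-linked leucine zipper repressor, fell by 0.76 and Nfatc2 fell by 0.40 on the log2 scale.

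Factors that set macrophage identity moved in both directions. Of 27 tested lineage factors, 6 rose and 10 fell, and with library totals alone 3 rose. Spi1, which encodes PU.1, the master factor of the myeloid lineage, had 288, 268 and 279 CPM in the control libraries and 419.8, 424 and 400.4 CPM with LPS (log2 fold change 0.58 ± 0.06, adjusted p = 7.02e-07). Mef2c, a factor tied to the microglial programme, had 162, 182 and 175 CPM in the control libraries and 90.9, 93.5 and 94 CPM with LPS (log2 fold change -0.90 ± 0.06, adjusted p = 7.36e-10). The 2 genes thus changed in opposite directions, each beyond the spread of its libraries. Maf, the c-Maf factor of mature macrophages, had 0.115, 0.279 and 0 CPM in the control libraries and 1.86, 0.895 and 1.43 CPM with LPS (log2 fold change 3.35 ± 0.58, adjusted p = 2.26e-04). Lyl1, a relative of the stem cell factor Tal1, and Etv5, an ETS factor, fell 1.95-fold and 1.94-fold, while 42.8% of the longest Etv5 transcript matched another gene, Gm4798. Mef2a fell 1.57-fold. Zeb2 rose from 217 to 304 CPM, log2 fold change 0.48 (adjusted p = 1.33e-05).

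Promoters of the changed genes were read from RefSeq (GRCm38.p6), in windows from 250 bases before to 50 after each start, and searched on both strands for short motifs. Of the tested genes 9329 matched by symbol, with 11922 windows. The NF-kB consensus was in 9.49% of 495 windows of genes at least 2-fold higher, in 4.5% of 111 windows of genes at least 2-fold lower, in 5.14% of windows of tested genes and in 4.51% of all 32851 windows. The AP-1 motif TGANTCA was in 14.3%, 6.31%, 5.19% and 7.81% of these windows, in the same order. The core GAAANNGAA of the interferon-stimulated response element was in 21.6%, 3.6%, 7.27% and 8.56%, and the STAT motif TTCNNNGAA in 11.7%, 4.5%, 6.71% and 8.3%. STAT and interferon motifs can overlap in letters. The genes counted as at least 2-fold higher here include the cytokine and interferon genes. The CCAAT box was in 33.3%, 35.1%, 38.1% and 37.4%, the motif TTTGAA of the cell cycle homology region in 15.6%, 15.3%, 12.2% and 17.9%, and the E-box CACGTG in 6.26%, 9.91%, 10% and 7.15%. A match describes letters in a window and is not a bound site.

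The following 60-base stretches, 5′ to 3′ along the gene's strand and all upstream of 1 RefSeq start of the gene, show such matches, on either strand, in capitals for genes that rose in different programmes, whose values stand beside their roles. In Tnn (minus strand, chr1:160153622-160153681) and Pde4b (plus strand, chr4:102569907-102569966) the capitals mark the NF-kB consensus, which began 81 and 128 bases before the start. In Mmp13 (plus strand, chr9:7272453-7272512), Fas (plus strand, chr19:34290422-34290481) and Upp1 (plus strand, chr11:9117937-9117996) they mark the AP-1 motif, 35, 211 and 45 bases before the start. In Jag1 (minus strand, chr2:137116558-137116617) and Pnp (plus strand, chr14:50944243-50944302) they mark the response element core, 72 and 22 bases before the start.
Tnn: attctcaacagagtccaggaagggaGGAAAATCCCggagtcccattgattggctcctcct
Pde4b: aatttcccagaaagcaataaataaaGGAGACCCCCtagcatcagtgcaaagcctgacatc
Mmp13: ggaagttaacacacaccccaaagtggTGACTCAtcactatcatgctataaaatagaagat
Fas: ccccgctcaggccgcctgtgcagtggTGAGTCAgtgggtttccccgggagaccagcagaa
Upp1: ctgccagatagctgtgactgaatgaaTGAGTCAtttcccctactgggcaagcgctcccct
Jag1: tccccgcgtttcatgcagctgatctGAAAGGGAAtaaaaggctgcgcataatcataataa
Pnp: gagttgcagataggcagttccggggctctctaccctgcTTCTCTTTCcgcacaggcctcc

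Genes that build and steer the actin cytoskeleton rose more often than they fell. Of 66 tested, 31 rose and 7 fell, with a median of 0.18. With library totals alone 11 fell. Marcksl1, which tethers actin at the membrane under control of protein kinase C, had 91.03, 85.2 and 87.6 CPM in the control libraries and 407, 402 and 384 CPM with LPS (log2 fold change 2.18 ± 0.05, adjusted p = 4.09e-16). Its relative Marcks had 1.03, 1.68 and 2.77 CPM in the control libraries and 15.02, 18.1 and 14.03 CPM with LPS (log2 fold change 3.09 ± 0.21, adjusted p = 1.82e-09). Per length, on the authors' FPKM scale, Marcksl1 was the more abundant, with group means of 54.5 without and 247 with LPS, against 0.448 without and 3.87 with LPS for Marcks, which had the larger fold change. Cdc42ep2, an effector of Cdc42, had 0.63, 1.28 and 1.01 CPM in the control libraries and 12.2, 12.8 and 12.96 CPM with LPS (log2 fold change 3.68 ± 0.18, adjusted p = 2.40e-11), whereas its relative Cdc42ep3 fell 1.45-fold. The small GTPase gene Rhou had 6.19, 5.48 and 5.9 CPM in the control libraries and 25.6, 22.2 and 25.6 CPM with LPS (log2 fold change 2.06 ± 0.11, adjusted p = 4.54e-11). Ezr, a linker of actin to the membrane named after its values were seen, rose from 147 to 348 CPM, log2 fold change 1.24 (adjusted p = 1.18e-13). The genes that fell included Myo1f, a myosin of immune cells (1.44-fold), Fmnl3, a formin (1.39-fold), and Ssh2, a cofilin phosphatase (1.32-fold). Several abundant actin genes were not called, among them Cfl1 at 1455 and 1535 CPM and Rac2 at 340.3 and 350.5 CPM, which like Ezr were picked after their values were seen.

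Receptors for lipid mediators and chemoattractants changed in both directions. Of 33 other G protein-coupled receptors of myeloid cells, 10 rose and 6 fell. Ptafr, the receptor for platelet-activating factor, had 5.56, 6.04 and 5.79 CPM in the control libraries and 19.6, 19.6 and 19.4 CPM with LPS (log2 fold change 1.75 ± 0.10, adjusted p = 3.65e-10). Gpr84, a receptor for medium-chain fatty acids, rose 5.24-fold, with 39.5% of its exonic bases in exons of a gene on the other strand. Ccrl2, an atypical receptor that binds chemerin, had 1.38, 2.4 and 1.12 CPM in the control libraries and 28.3, 26.9 and 24.5 CPM with LPS (log2 fold change 4.02 ± 0.18, adjusted p = 6.95e-12), and Gprc5a rose 6.56-fold. Among the receptors that fell were those known for positioning cells in tissue. Gpr183, the receptor for oxysterols, had 52.3, 52.98 and 53.2 CPM in the control libraries and 23.96, 23.2 and 25.9 CPM with LPS (log2 fold change -1.12 ± 0.09, adjusted p = 3.00e-08). S1pr1, a receptor for sphingosine 1-phosphate, had 21.1, 25.99 and 23.5 CPM in the control libraries and 11.6, 10.3 and 11.6 CPM with LPS (log2 fold change -1.08 ± 0.11, adjusted p = 3.64e-07). Cxcr4, the receptor for the chemokine CXCL12, had 64.5, 65.9 and 65.9 CPM in the control libraries and 44.1, 38.8 and 36.1 CPM with LPS (log2 fold change -0.72 ± 0.07, adjusted p = 6.09e-07). In all 3 the groups did not overlap.

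Genes of purine signalling, both receptors and enzymes, were among those called. Of 14 tested genes 7 rose and 2 fell. Adora2b, an adenosine receptor coupled to cyclic AMP, had 7.68, 5.81 and 7.07 CPM in the control libraries and 20.98, 25.8 and 22.3 CPM with LPS (log2 fold change 1.75 ± 0.14, adjusted p = 3.36e-08). P2ry2 and P2ry6, receptors for nucleotides released by cells, rose 1.72-fold and 1.66-fold. P2ry1, a receptor for ADP, fell 2.26-fold, with 23.1% of its exonic bases in exons of a gene on the other strand. Nt5e, the ectoenzyme CD73 that forms adenosine outside the cell, had 20.3, 20.1 and 22.5 CPM in the control libraries and 12.1, 9.55 and 11.5 CPM with LPS (log2 fold change -0.93 ± 0.10, adjusted p = 1.59e-06). The nucleoside transporter gene Slc29a3, named under the same list, rose 1.89-fold.

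Signalling behind these receptors showed members of 1 family going opposite ways. Among 34 genes of cyclic nucleotide signalling 8 rose (23.5%) and 7 fell (20.6%), beside 15.2% and 13.6% of all tested genes. Library totals alone gave 11 lower. Pde4b, a phosphodiesterase that breaks down cyclic AMP, had 3.04, 2.96 and 1.86 CPM in the control libraries and 20.7, 24.4 and 25.6 CPM with LPS (log2 fold change 3.17 ± 0.15, adjusted p = 1.49e-11). Pde1c, a calcium-dependent phosphodiesterase, had 4.82, 5.31 and 3.99 CPM in the control libraries and 1.68, 1.37 and 1.67 CPM with LPS (log2 fold change -1.57 ± 0.30, adjusted p = 6.24e-04). Pde1b, from the same subfamily as Pde1c, went the other way and rose 2.01-fold (adjusted p = 0.00471). The exchange factor Rapgef2, which loads Rap1, had 18.6, 18.8 and 18.7 CPM in the control libraries and 60.3, 61.1 and 62.6 CPM with LPS (log2 fold change 1.71 ± 0.06, adjusted p = 1.10e-13). Prkacb, a catalytic subunit of protein kinase A, fell 1.34-fold. In the list of 40 regulators of G protein and Ras family signalling, 10 rose and 13 fell, with a median of -0.11. Rasgrp3, an exchange factor for Ras and Rap driven by diacylglycerol, had 348, 363 and 374 CPM in the control libraries and 141, 153 and 148 CPM with LPS (log2 fold change -1.30 ± 0.05, adjusted p = 5.97e-13). Its lowest control library was more than 2 times its highest LPS library. Rgl1 and Ralgds, exchange factors for Ral, rose 3.22-fold and 2.75-fold, and Rasa4, which switches Ras off, rose 2.54-fold. Rgs18, Rgs10 and Rgs12, which switch off G protein signals, fell 2.99-fold, 1.46-fold and 1.38-fold. Of 26 Arhgap genes, which switch off small GTPases, 4 rose and 11 fell, but without LPS library 1, 6 rose and 7 fell.

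**Figure D3:**
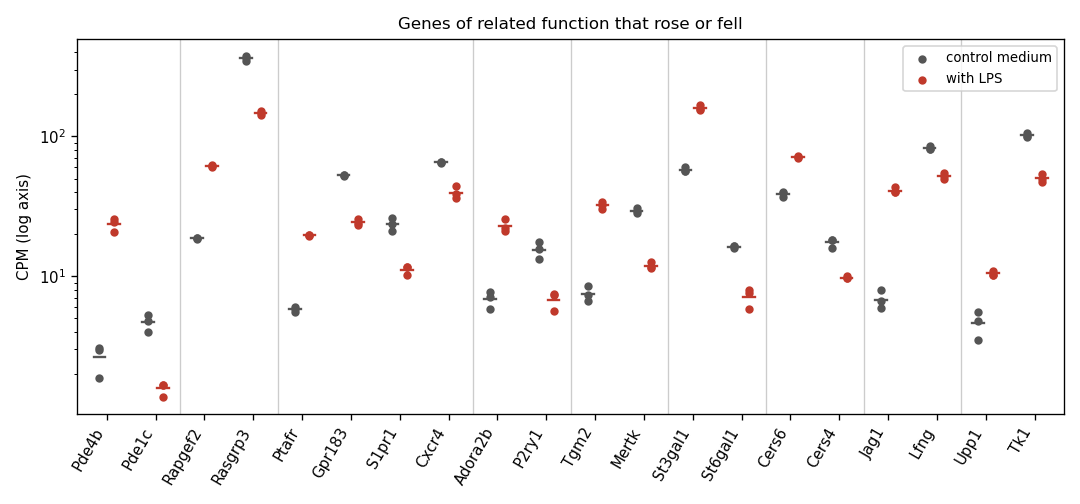
CPM per library on a log axis for 20 genes of related function, separated by grey lines, with control libraries in grey, LPS libraries in red and lines at group means. The genes were picked after their values were seen, so that each block holds at least 1 gene higher with LPS and at least 1 lower. The groups overlapped in none of these genes, which a choice made on their values favours.

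Kinases and cytokine receptors outside the ligand genes also changed. Among 89 signalling kinases 28 rose and 20 fell, and library totals alone gave 31 lower. Map3k8, the kinase TPL2 that activates ERK below Toll-like receptors, had 3.67, 3.3 and 4.15 CPM in the control libraries and 14.6, 13.01 and 11.9 CPM with LPS (log2 fold change 1.83 ± 0.14, adjusted p = 6.70e-09). The tyrosine kinase gene Src rose 2.94-fold, and Ikbke, a relative of the kinase TBK1, rose 3.49-fold. Rps6ka5, the histone kinase MSK1, fell 2.18-fold, and Pik3cd, the delta isoform of PI 3-kinase, had 113, 111 and 109 CPM in the control libraries and 72.6, 71.6 and 70.8 CPM with LPS (log2 fold change -0.63 ± 0.05, adjusted p = 6.64e-09). Of 41 cytokine and growth factor receptors 17 rose and 5 fell. The number lower depended on single libraries, with 2 without control library 2, 3 without control library 3, LPS library 1 or LPS library 3, and 9 with library totals alone. Tnfrsf1b, TNF receptor 2, had 56.9, 54.9 and 57.4 CPM in the control libraries and 459, 478 and 462 CPM with LPS (log2 fold change 3.05 ± 0.05, adjusted p = 1.48e-17). Il18rap, an accessory chain of the interleukin-18 receptor, had 34.3, 34.98 and 36.95 CPM in the control libraries and 20.7, 19.9 and 21.2 CPM with LPS (log2 fold change -0.78 ± 0.09, adjusted p = 2.09e-06). The 3 libraries of a group differed little in either gene.

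Receptors for uptake were found on both sides. Of 26 C-type lectins, galectins and scavenger receptors, 12 rose and 4 fell, and 7 fell under upper-quartile factors or library totals. Clec4e, the lectin Mincle that senses mycobacterial glycolipid and dying cells, had 582, 581 and 584 CPM in the control libraries and 1438, 1334 and 1381 CPM with LPS (log2 fold change 1.25 ± 0.05, adjusted p = 3.80e-13). Lgals9, galectin-9, had 9.63, 11.01 and 12.2 CPM in the control libraries and 48.6, 43.9 and 45.1 CPM with LPS (log2 fold change 2.06 ± 0.09, adjusted p = 3.24e-12), and Olr1, a scavenger receptor for oxidised lipoprotein, rose 3.35-fold. Clec2d, a ligand of a natural killer cell receptor, rose 11.4-fold from at most 0.224 CPM in a control library. Cd36 and Colec12, scavenger receptors, fell 1.25-fold and 1.26-fold, and Clec10a fell 1.8-fold. Genes for clearing dead cells were called in both directions. Of 27 genes, 8 were lower (29.6%) and 6 higher (22.2%), beside 13.6% and 15.2% of all tested genes. Their median was -0.12. With no filter 7 were lower and 7 higher, and with library totals alone 13 were lower. Mertk, a kinase receptor that binds bridged apoptotic cells, had 29.2, 28.1 and 30.9 CPM in the control libraries and 11.4, 12.5 and 11.7 CPM with LPS (log2 fold change -1.31 ± 0.11, adjusted p = 4.84e-08). Trem2, a lipid receptor of microglia, had 137, 138 and 133 CPM in the control libraries and 91.9, 89.3 and 102 CPM with LPS (log2 fold change -0.53 ± 0.06, adjusted p = 1.33e-06). Cd47, the signal that restrains phagocytes, had 121, 118 and 122 CPM in the control libraries and 228, 223 and 229.6 CPM with LPS (log2 fold change 0.91 ± 0.05, adjusted p = 4.38e-11). Cd300lf, a phosphatidylserine receptor, rose 3.1-fold, and Tgm2, tissue transglutaminase, rose 4.28-fold with 21.8% of its exonic bases in exons of a gene on the other strand. Receptors listed for 1 task therefore rose and fell within 1 comparison.

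Genes of membrane traffic were called in both directions. Of 71 endosomal genes 21 rose and 9 fell under TMM scaling, 16 and 14 under upper-quartile factors, or 15 and 18 using library totals, so the balance turned with the scaling. Ehd1, which drives recycling from endosomes, had 147, 136 and 146 CPM in the control libraries and 469.5, 471 and 456 CPM with LPS (log2 fold change 1.70 ± 0.05, adjusted p = 8.47e-15). Stx11 and Snx10, a SNARE of immune cells and a sorting nexin, rose 2.05-fold and 1.6-fold, while Snx14 and Rin2 fell 1.71-fold and 1.53-fold. In autophagy, 11 of 58 genes rose (19.0%) and 10 fell (17.2%), or 7 and 17 with library totals alone. These shares were near the 15.2% and 13.6% of all tested genes. Sqstm1, the cargo receptor p62, had 430.1, 404 and 415 CPM in the control libraries and 941, 968 and 960 CPM with LPS (log2 fold change 1.20 ± 0.04, adjusted p = 3.47e-14), and 17.3% of its exonic bases lie in exons of a gene on the other strand. Tfeb, a regulator of lysosomal genes, fell 1.42-fold, and Mcoln2, an endolysosomal channel, rose 2.35-fold.

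Genes for handling iron, zinc and copper rose more often than they fell. Of 45 tested genes 21 rose and 4 fell, with a median of 0.21, and 2 fell without LPS library 2. Slc11a2, the divalent metal transporter DMT1 that imports iron, had 50.1, 50.7 and 52.3 CPM in the control libraries and 209.5, 199 and 189.8 CPM with LPS (log2 fold change 1.97 ± 0.05, adjusted p = 1.92e-15). Slc25a37, mitoferrin, which carries iron into mitochondria, had 25.6, 29.3 and 25.9 CPM in the control libraries and 50.5, 62.2 and 70.9 CPM with LPS (log2 fold change 1.19 ± 0.10, adjusted p = 5.65e-08). Slc31a2, a copper transporter, had 23.3, 22.7 and 22.6 CPM in the control libraries and 61.1, 60.8 and 57.99 CPM with LPS (log2 fold change 1.39 ± 0.07, adjusted p = 2.64e-11). All 3 transporters were at least 2-fold higher on average. The heavy chain of ferritin, Fth1, rose from 4137 to 5606 CPM, log2 fold change 0.44 (adjusted p = 7.01e-08), while the light chain Ftl1 had 3019 and 2862 CPM (adjusted p = 0.311) and the transferrin receptor Tfrc 837 and 882 CPM (adjusted p = 0.255), 3 genes named after their values were seen. Steap3, an endosomal ferrireductase, had 170.5, 167 and 164 CPM in the control libraries and 141, 124 and 119 CPM with LPS (log2 fold change -0.39 ± 0.06, adjusted p = 4.45e-05). Slc30a5, a zinc transporter of the secretory pathway, fell 1.3-fold. Lcn2, the siderophore-binding protein lipocalin-2, stayed at 0.717 to 2.21 CPM with LPS, and its groups overlapped (log2 fold change 1.61 ± 0.55, adjusted p = 0.0363). Leaving out control library 1 or 3 or LPS library 1 or 2 raised its adjusted p above 0.05, to 0.127, 0.102, 0.0578 and 0.238.

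Lipid genes were called in both directions. Of 46 sphingolipid genes 12 rose and 12 fell (26.1% each), beside 15.2% and 13.6% of all tested genes. Plpp3, a phosphatase of lipid phosphates including sphingosine 1-phosphate, had 15.8, 17.9 and 14.6 CPM in the control libraries and 77.1, 79.1 and 80.1 CPM with LPS (log2 fold change 2.29 ± 0.07, adjusted p = 2.01e-14). Cers6, a ceramide synthase that prefers shorter acyl chains, had 36.9, 39.96 and 39.5 CPM in the control libraries and 71.6, 69.7 and 71.96 CPM with LPS (log2 fold change 0.87 ± 0.06, adjusted p = 2.11e-09). Cers4, another ceramide synthase, had 18.3, 18.1 and 16 CPM in the control libraries and 9.62, 9.67 and 10.03 CPM with LPS (log2 fold change -0.83 ± 0.13, adjusted p = 5.20e-05). The 2 synthases moved apart, and Sgms2, sphingomyelin synthase 2, and Degs1, which completes ceramide, rose 2.49-fold and 1.71-fold. St3gal5, which makes the ganglioside GM3, fell 1.57-fold. Of 58 genes of fatty acid oxidation, 13 fell and 3 rose, with a median of -0.06. The number lower was 7 without control library 3, 8 and 5 without LPS libraries 1 and 3, and 21 with library totals alone, and the number higher was 5 with a replicate block and 6 with no filter or with only the 6 libraries. Crot, which exports peroxisomal products to mitochondria, had 23.2, 21.4 and 21.2 CPM in the control libraries and 14.5, 17.3 and 17.02 CPM with LPS (log2 fold change -0.43 ± 0.11, adjusted p = 0.00483), and Ppard, a lipid-sensing nuclear receptor, rose 1.5-fold. Among 48 triglyceride and phospholipid genes 10 rose (20.8%) and 9 fell (18.8%), or 14 lower with library totals, while of all tested genes 15.2% rose and 13.6% fell. Pla2g4a, the cytosolic phospholipase that frees arachidonic acid, had 138, 144 and 135 CPM in the control libraries and 89.3, 78.1 and 79.1 CPM with LPS (log2 fold change -0.76 ± 0.07, adjusted p = 5.03e-08). Hilpda, an inhibitor of triglyceride breakdown on lipid droplets, rose 1.76-fold.

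Enzymes that build the sugar chains of the cell surface differed from one another. Of 67 genes for Siglecs and glycan synthesis, 13 rose (19.4%) and 16 fell (23.9%), beside 15.2% and 13.6% of all tested genes. With library totals 25 fell. St3gal1, which caps O-linked glycans with sialic acid, had 56.5, 60.9 and 56.2 CPM in the control libraries and 154, 168 and 158 CPM with LPS (log2 fold change 1.47 ± 0.05, adjusted p = 3.83e-13). St6gal1, which adds sialic acid to N-linked glycans in another linkage, had 15.9, 16.3 and 16.4 CPM in the control libraries and 5.77, 7.52 and 7.94 CPM with LPS (log2 fold change -1.19 ± 0.19, adjusted p = 1.03e-04). St8sia4, a polysialic acid synthase, had 19.7, 22.1 and 21.7 CPM in the control libraries and 10.7, 10.3 and 9.91 CPM with LPS (log2 fold change -1.04 ± 0.10, adjusted p = 2.57e-07). With Cmah, 3 sialic acid enzymes were thus at least 2-fold lower while St3gal1 was higher. Chst11 and Xylt2, enzymes of chondroitin sulfate and proteoglycan synthesis, rose 2.28-fold and 2.27-fold.

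Genes for growth and for replication moved apart. In ribosome biogenesis 28 of 93 genes rose and none fell, with a median of 0.11, under TMM scaling. Upper-quartile factors gave 20 higher and 2 lower, and library totals 12 and 4, so this small shift depended on the scaling. Rrs1, a ribosome assembly factor, had 142, 132 and 135 CPM in the control libraries and 184, 185 and 186 CPM with LPS (log2 fold change 0.44 ± 0.06, adjusted p = 1.41e-05). Polr1b, a subunit of RNA polymerase I, had 96.3, 102 and 105 CPM in the control libraries and 128, 123 and 134 CPM with LPS (log2 fold change 0.34 ± 0.07, adjusted p = 8.69e-04). The groups did not overlap in either gene, and both changes were under 1.4-fold. Of 35 constitutive proteasome subunits 9 rose and none fell, but 4 rose under either other scaling or without control library 2 or LPS library 3, and 5 without LPS library 1. The 6 genes of the immunoproteasome, which generates peptides for presentation, had 5 higher, with a median of 0.54, for example Psmb10 at 72.7, 67.8 and 70.3 CPM in the control libraries and 114, 113 and 115 CPM with LPS (log2 fold change 0.70 ± 0.05, adjusted p = 5.18e-09). Of 23 cytosolic aminoacyl-tRNA synthetases, Nars rose 1.15-fold and the others were not called, while 6 rose in a fit of only the 6 libraries and 3 fell with library totals alone.

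DNA repair by homologous recombination and the Fanconi anaemia pathway had the largest share of falls among the 35 programme lists. Of 64 tested genes 47 fell, 16 were not called and 1 rose, with a median of -0.37, against a fall in 13.6% of all tested genes. The number lower ran from 37 to 48 over all 16 alternatives. Brca2, a mediator of homologous recombination, had 28.9, 39.6 and 39.4 CPM in the control libraries and 17.4, 20.7 and 25.1 CPM with LPS (log2 fold change -0.77 ± 0.14, adjusted p = 2.67e-04). Neil3, a glycosylase that unhooks DNA crosslinks, had 11.98, 11.1 and 11.3 CPM in the control libraries and 5.34, 6.62 and 5.91 CPM with LPS (log2 fold change -0.94 ± 0.15, adjusted p = 1.33e-04). Rad51c, another recombination gene, had 15.7, 14.6 and 15.1 CPM in the control libraries and 9.06, 8.77 and 9.38 CPM with LPS (log2 fold change -0.74 ± 0.17, adjusted p = 0.00257). All 3 genes were lower in each LPS library than in any control library. Rmi2, a partner of the BLM helicase, fell 1.83-fold, and none of the 64 genes fell as much as 2-fold. The gene that rose, Atrip, which binds the checkpoint kinase ATR, went from 20.5 to 25.8 CPM, log2 fold change 0.33 (adjusted p = 0.00772), and 16% of its exonic bases are shared with Trex1 on the same strand. Among genes named after their values were seen, Atm and Atr, the kinases that sense DNA damage, had log2 fold changes of -0.04 and -0.05 and were not called.

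The E2F family, which controls genes of DNA replication, was also lower: 7 of 10 genes were lower and none higher, with a median of -0.38, although limma on FPKM called 1 higher. In these genes, also named after their values were seen, E2f1 went from 65.8 to 47.1 CPM, log2 fold change -0.48 and E2f8 from 82.4 to 54.8 CPM, log2 fold change -0.59, with adjusted p-values of 7.18e-05 and 1.51e-07. E2f3, E2f4 and E2f5 were not called, at -0.16, -0.08 and 0.21. Of 30 Kif kinesins, motors that include those of the mitotic spindle, 16 fell and 3 rose. Of all tested genes 15.2% rose and 13.6% fell, with a median of -0.004. In nucleotide metabolism the median was -0.04 under TMM scaling, so the list as a whole moved little. Of its 60 genes 12 fell and 10 rose, or 19 and 5 with library totals, and 6 rose without control library 2. Enzymes that supply DNA precursors were among those lower: Tk1, thymidine kinase, had 106, 101 and 99.4 CPM in the control libraries and 49.4, 47.4 and 53.6 CPM with LPS (log2 fold change -1.02 ± 0.06, adjusted p = 6.80e-10). Rrm2, a subunit of ribonucleotide reductase, fell 1.44-fold. Enzymes that recover or degrade nucleosides were among those higher: Upp1, uridine phosphorylase, had 5.56, 4.75 and 3.51 CPM in the control libraries and 10.9, 10.3 and 10.3 CPM with LPS (log2 fold change 1.19 ± 0.16, adjusted p = 1.09e-05), and Pnp, purine nucleoside phosphorylase, had 32.4, 29.4 and 29.8 CPM in the control libraries and 64.8, 63.7 and 62.4 CPM with LPS (log2 fold change 1.06 ± 0.07, adjusted p = 1.88e-09). Pnp shares 18.0% of its exonic bases with Gm49342 on the same strand. Samhd1, which destroys DNA precursors, had 143, 160.1 and 149.5 CPM in the control libraries and 306, 305 and 275 CPM with LPS (log2 fold change 0.97 ± 0.06, adjusted p = 4.65e-10), and Gda, guanine deaminase, fell 1.95-fold.

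**Figure D4:**
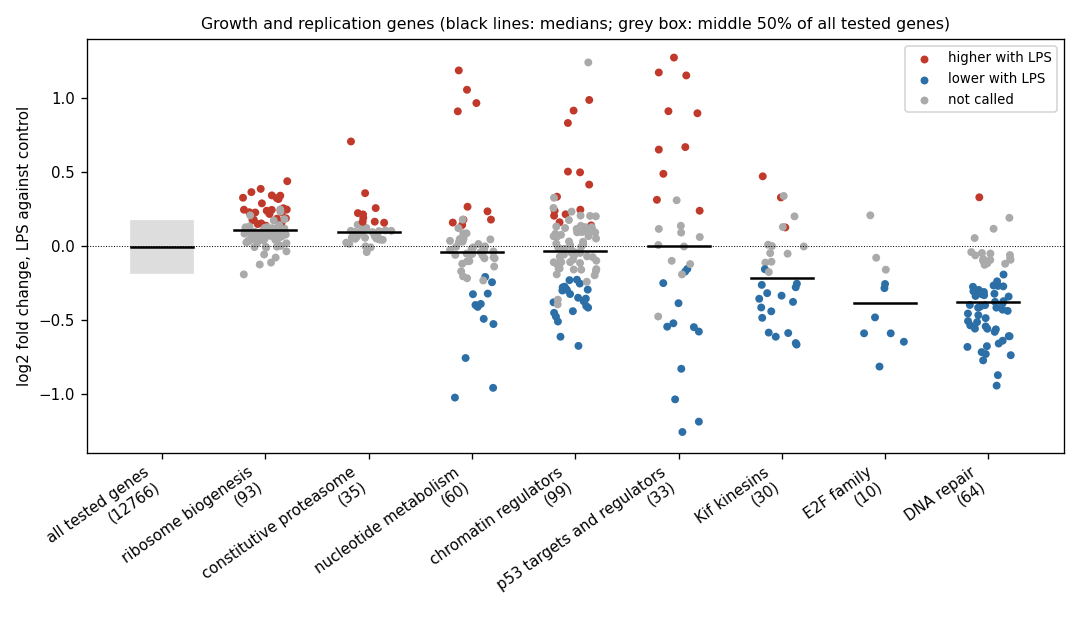
Log2 fold change of each tested gene, LPS against control, in 8 sets of growth and replication genes, with red and blue points called higher and lower, grey points not called and black lines at the medians. The grey box spans the middle 50% of all 12766 tested genes. DNA repair and E2F genes had medians of -0.37 and -0.38 and ribosome biogenesis genes a median of 0.11. The axis ends at 1.4 in either direction.

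The E2F core TTTNNCGC, searched on both strands, was a frequent motif of the repair genes, as a description. It was in 18 of 56 windows of 47 tested DNA repair genes (32.1%), against 8.44% of windows of tested genes and 5.17% of all windows. Windows of genes at least 2-fold lower held it in 6.31% and those of genes at least 2-fold higher in 3.84%, while over all genes called the shares were 9.64% for those that fell and 6.33% for those that rose. In the DNA repair windows the CCAAT box was in 55.4%, the motif of the cell cycle homology region in 7.14% and the AP-1 motif in none of the 56. Brca2 (plus strand, chr5:150522427-150522486), Chek2 (plus strand, chr5:110839805-110839864) and Fancg (minus strand, chr4:43010320-43010379) are printed as repair genes with the core, in capitals, 168, 152 and 52 bases before the start. Chek2, a checkpoint kinase, and Fancg, a subunit of the Fanconi core complex, were named after their values were seen and fell 1.64-fold and 1.6-fold.
Brca2: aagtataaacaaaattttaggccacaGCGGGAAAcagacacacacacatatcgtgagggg
Chek2: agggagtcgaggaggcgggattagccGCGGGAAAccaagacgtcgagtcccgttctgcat
Fancg: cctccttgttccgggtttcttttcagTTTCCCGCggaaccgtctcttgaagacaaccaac

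**Figure D5:**
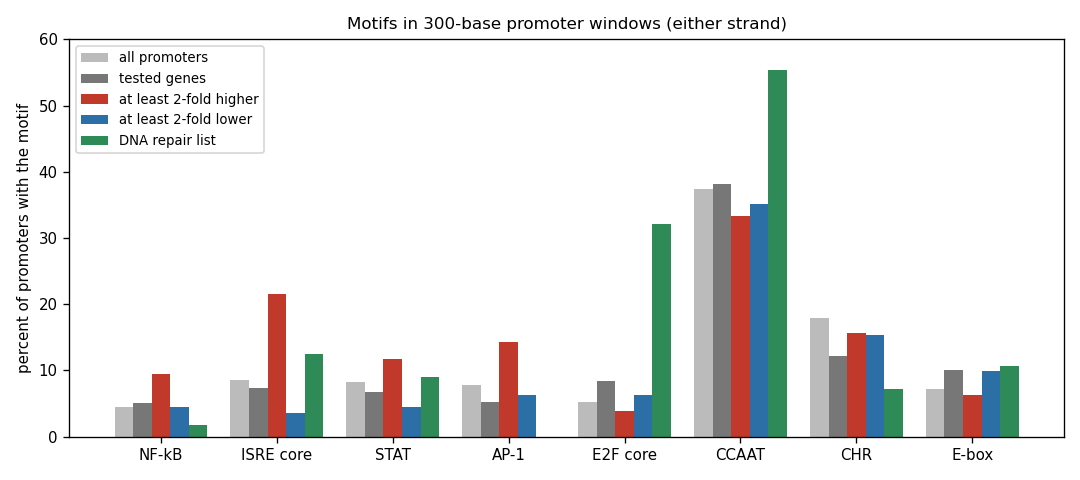
Percent of 300-base promoter windows that hold each motif on either strand, for all RefSeq promoters, tested genes, genes at least 2-fold higher, genes at least 2-fold lower and the DNA repair list. The AP-1 motif was in 14.3% of windows of genes at least 2-fold higher, and the E2F core in 32.1% of windows of the DNA repair list.

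Stress and growth-arrest genes did not move together. Of 33 targets and regulators of p53, 10 rose and 12 fell. Plk2, a kinase induced by stress, had 119.9, 117 and 119 CPM in the control libraries and 265, 266 and 263 CPM with LPS (log2 fold change 1.16 ± 0.04, adjusted p = 5.92e-13). Btg1, an antiproliferative gene, rose 1.89-fold. Cdkn2c, an inhibitor of the kinases CDK4 and CDK6, had 56.9, 52.4 and 56.1 CPM in the control libraries and 29.3, 26.2 and 25.1 CPM with LPS (log2 fold change -1.04 ± 0.08, adjusted p = 1.37e-08), and Ccng2, cyclin G2, fell 2.39-fold. Trp53inp1 and Sesn1, stress genes under p53 and FoxO control, fell 2.28-fold and 1.78-fold. In chromatin regulators 22 of 99 genes fell (22.2%) and 13 rose (13.1%). Of these regulators 8 rose without control library 1 or LPS library 2 or 3, while library totals gave 7 higher and 35 lower. Tet2, which oxidises methylated cytosine, had 19.2, 18.7 and 18.3 CPM in the control libraries and 34.5, 36.8 and 34.9 CPM with LPS (log2 fold change 0.92 ± 0.11, adjusted p = 2.25e-06). Ezh2, the histone methyltransferase of Polycomb, had 75.03, 75.3 and 75.1 CPM in the control libraries and 51.7, 55.9 and 50.7 CPM with LPS (log2 fold change -0.51 ± 0.06, adjusted p = 9.33e-07). Setdb2 rose 1.78-fold, and Hdac5 and Cbx6 fell 1.53-fold and 1.6-fold.

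Cell death genes rose more often than they fell, 17 against 5 of 49, with 10 lower under library totals. Tnfsf10, which encodes TRAIL, a death ligand for receptors other than Fas, had 0.344, 0.112 and 0.372 CPM in the control libraries and 7.88, 6.8 and 5.85 CPM with LPS (log2 fold change 4.59 ± 0.30, adjusted p = 1.49e-09). Bcl2a1d, a survival gene, rose 2.89-fold, but 94.9% of its longest transcript matches Bcl2a1a and reads of these copies cannot be told apart. Ripk3, the kinase of necroptosis, had 49.01, 46.9 and 54.3 CPM in the control libraries and 32.9, 34.9 and 36.2 CPM with LPS (log2 fold change -0.53 ± 0.08, adjusted p = 4.53e-05). Pmaip1, the death activator NOXA, fell 1.44-fold.

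Genes of coagulation, fibrinolysis, serpins, cystatins and cathepsins, a list that holds both proteases and their inhibitors, rose more often than they fell. Of 44 tested, 23 rose and 8 fell, with a median of 0.22, and 5 fell without LPS library 3. Serpinb9, which inhibits granzyme B, had 29.9, 31.2 and 29.9 CPM in the control libraries and 119.6, 111 and 106 CPM with LPS (log2 fold change 1.89 ± 0.07, adjusted p = 5.22e-13), and its relative Serpinb9b rose 3.54-fold. Plaur, the urokinase receptor, had 43.7, 40.7 and 43.5 CPM in the control libraries and 123, 120 and 122 CPM with LPS (log2 fold change 1.51 ± 0.05, adjusted p = 6.50e-14). The groups did not overlap in any of these. Lgmn, the lysosomal asparaginyl protease legumain, had 389, 384 and 395 CPM in the control libraries and 293, 281 and 272 CPM with LPS (log2 fold change -0.46 ± 0.05, adjusted p = 4.26e-07). Adam10, a protease that sheds membrane proteins, fell 1.29-fold.

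Contact and guidance genes changed on both sides, as did all tested genes, with 15.2% higher and 13.6% lower. Of 32 adhesion molecules 10 rose and 8 fell. Cd44, the hyaluronan receptor, had 713, 725 and 696 CPM in the control libraries and 1266, 1223 and 1211 CPM with LPS (log2 fold change 0.79 ± 0.05, adjusted p = 6.44e-10). Selplg, the ligand of P-selectin, and Ninj1, which ruptures membranes of dying cells, rose 2.09-fold and 1.79-fold. Cadm1 fell 1.41-fold. In 29 genes of guidance 9 rose (31.0%) and 4 fell (13.8%). Sema4d, a transmembrane semaphorin of immune cells, had 151, 161 and 161 CPM in the control libraries and 329, 330.1 and 317 CPM with LPS (log2 fold change 1.05 ± 0.05, adjusted p = 5.15e-12), and Nrp1, a semaphorin receptor, fell 1.47-fold. Of 41 genes of the Notch and Wnt pathways 9 rose and 8 fell, or 13 lower with library totals. Jag1, a Notch ligand, had 5.9, 6.59 and 7.92 CPM in the control libraries and 40.1, 39.7 and 43.2 CPM with LPS (log2 fold change 2.59 ± 0.11, adjusted p = 2.98e-12). Lfng, a glycosyltransferase that tunes Notch for its ligands, had 85.8, 80.8 and 81.7 CPM in the control libraries and 54.4, 49.8 and 51.8 CPM with LPS (log2 fold change -0.67 ± 0.06, adjusted p = 2.28e-07). Notch2 rose 1.85-fold and Mfng, the relative of Lfng, fell 1.58-fold. In TGF-beta signalling 6 of 35 genes rose (17.1%) and 4 fell (11.4%), near the 15.2% and 13.6% of all tested genes. The number higher was 3 without control library 3, and the number lower was 2 without control library 2 or 3. Tgif1, a corepressor of this pathway, rose 1.59-fold, and the corepressor Ski fell 1.25-fold. Ion channels had 16 of 56 genes higher (28.6%) and 9 lower (16.1%), or 15 lower with library totals. Clcn7, the lysosomal chloride exchanger, was up 1.62-fold and Stim1, the calcium sensor of the endoplasmic reticulum, down 1.33-fold.

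Clock genes and growth factors were called in both directions, as were all tested genes, with 15.2% higher and 13.6% lower. Circadian clock genes had 4 of 21 higher (19.0%) and 2 lower (9.52%), near those shares. Per1 had 19.9, 27.7 and 26.4 CPM in the control libraries and 39.05, 34.7 and 36.4 CPM with LPS (log2 fold change 0.57 ± 0.11, edgeR adjusted p = 4.26e-04). Of 22 growth factors 4 rose (18.2%) and 5 fell (22.7%). The number higher was 2 without control library 3 or any 1 LPS library, and the number lower was 3 without LPS library 2. Spp1, osteopontin, a secreted matrix protein, had 9312, 9284 and 9229 CPM in the control libraries and 7363, 6833 and 6793 CPM with LPS (log2 fold change -0.41 ± 0.04, adjusted p = 3.89e-07) and shares 18.8% of its exonic bases with Gm42793.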

How the data were processed

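RNA of N9 cells was sequenced in 12 libraries, and the authors deposited a table of raw counts by Ensembl identifier and an FPKM table. Counting used featureCounts 1.5.0-p3 on mm10 per the submitters' processing notes. No source used here gives the aligner, the annotation release or the strand setting. The deposited FPKM values equalled count over gene length up to 1 constant per library (largest deviation 8.73e-08%) and were used only as an alternative. All rows carried a gene identifier.

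Genes kept by edgeR's filterByExpr (12766 of 54532) were fitted with edgeR 4.0.16 in R 4.3.3 by the quasi-likelihood method, with scaling by the trimmed mean of M-values and 1 coefficient per group over all 12 libraries, and LPS was contrasted with control. Pairs of libraries within a group differed beyond counting error, with a lowest chi-square per degree of freedom of 3.62, so none was counted as a duplicate. The procedure was tested on simulated data.

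The comparison, the 35 programme lists and the 7 marker lists were chosen with earlier results of these data known. Genes were named by rule: up to 15 called protein-coding genes each way by size of change, with 50 or more counts on average in one group, no overlap between groups and no clone or model name, leaving out the best known cytokine, chemokine and interferon genes; up to 4 called members each way of each list, with 20 or more; and up to 5 non-coding genes each way. Others are said to be named after their values were seen. Lists were given no test. Where a group had 3 counts or fewer, the text gives a ratio of summed counts and its exact 95% binomial interval, which covers counting error only.

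Exon overlap was measured with bedtools 2.31.1 on GENCODE M21, in which 98.26% of shared genes had the same position as in the count table. Transcripts of named genes were compared with BLAST 2.17.0 (at least 98% identity over 75 bases).

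The alternatives were RLE, upper-quartile or no scaling factors, DESeq2 1.42.0, only the 6 libraries, no filter, a mean of at least 50 counts, a replicate block, limma 3.58.1 on log2(FPKM + 1) or log2(FPKM + 0.1), and leaving out each library.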

Additional observations from a re-analysis of the deposited data

How the results depend on the processing

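The counts of genes called stayed within 1.5 times the reported ones under all 16 alternatives except 4 values. With library totals alone 2951 genes were lower. A mean of at least 50 counts left 64 genes at least 2-fold lower, from fewer genes tested. Limma on log2(FPKM + 1) gave 286 genes at least 2-fold higher and 11 at least 2-fold lower, since the pseudocount shrinks changes of low genes. Leaving out 1 library gave 1629 to 1767 genes higher, 1362 to 1488 lower, 487 to 507 at least 2-fold higher and 95 to 101 at least 2-fold lower. Of the 280 genes named by the rule none changed sign under an alternative that tested it, and 243 kept their call in each alternative that tested them; a mean of at least 50 counts tested 266 of the 280. The calls lost ranged from 0 (RLE, the 6 libraries alone, the stricter filter) to 22 (without control library 3 or LPS library 3).

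Replicate numbers did not pair the libraries: deviations from the group means correlated at 0.119, -0.014 and -0.078 across genes for numbers 1, 2 and 3. A fit with the replicate block gave 2210 genes higher and 1939 lower, 509 and 112 of them by at least 2-fold, and 1 named gene, Fut7, lost its call (adjusted p = 0.0517). Depth limits genes at a few CPM, such as Dgkg or Lcn2, more than abundant ones.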

Other observations

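Among transcripts other than protein-coding ones, the mitochondrial ribosomal RNAs had the highest levels of those named. mt-Rnr1, the small subunit RNA, had 219, 240.2 and 215 CPM in the control libraries and 471, 517 and 542 CPM with LPS (log2 fold change 1.18 ± 0.10, adjusted p = 3.41e-08, edgeR). mt-Rnr2, the large subunit RNA, named after its values were seen, went from 154 to 272 CPM, log2 fold change 0.82 (edgeR adjusted p = 1.45e-06). The 12 tested messenger RNAs of the same genome had log2 fold changes from -0.61 to 0.22 and edgeR adjusted p-values of 0.0502 or more. Among them, chosen after their values were seen, mt-Co1 had 2986 and 3031 CPM (adjusted p = 0.924) and mt-Nd1 1131 and 902 CPM (adjusted p = 0.0502). No source used here says how ribosomal RNA was removed from the libraries, and its part in these values was not tested. Zfp469, listed as non-coding in the count table, rose 3.44-fold and BC022960 rose 2.26-fold, while D5Ertd605e, Trerf1 and AU020206 fell 1.51-fold, 1.37-fold and 1.34-fold. Of 234 tested lincRNAs 10 rose and 10 fell (16 rose with no filter), and of 11305 tested protein-coding genes 1852 rose and 1699 fell. At least 2-fold higher were 9 of the lincRNAs and 446 of the protein-coding genes, and at least 2-fold lower 2 and 97. The lincRNAs were lower in reads, summing to 1349 CPM without LPS against 927700. The part of these lower reads in the difference in calls was not tested. With a mean of at least 50 counts, 6 of 68 lincRNAs rose and 7 fell.

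Some genes at least 2-fold higher were also neighbours among the tested genes outside the well-known interferon clusters, with genes not tested left out of account. On chromosome 13 (mm10), 4 neighbouring tested genes, Serpinb6b, Serpinb9, Serpinb9b and Serpinb1b, lay between positions 32965209 and 33094380 with log2 fold changes of 1.06 to 1.89. On the same chromosome Sema4d, Gadd45g and Syk, spread over 963 kb (51685529 to 52648792), had 1.05 to 1.28. On chromosome 9, Mmp13, Mmp12 and Mmp10 lay between 7272514 and 7510240, with 3.83 for Mmp13 and 1.76 for Mmp12, while Mmp10 had no count in the control libraries and at most 0.373 CPM with LPS. These runs were chosen after their values were seen, and how often such runs arise by position alone was not tested. A run of 3 or more neighbouring genes at least 2-fold lower was found nowhere. Only 109 genes were at least 2-fold lower, against 503 higher, so few such runs could form and their absence says little.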
